A study of Mus musculus with 24 samples.

Results

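Expression of 7 genes that restrain proliferation was followed in mouse CD4+ T cells: Btg1, Btg2, Tob1, Tob2, Txnip, Pdcd4 and Tsc22d3. They were taken by name from the 22009 named genes of the deposited table, and all 7 were present and passed the filter on low values in every test. The study sequenced RNA from 24 libraries, each of CD4+ T cells isolated by negative selection from the spleens of adult wild-type C57BL/6 mice. Cells were activated in vitro with anti-CD3 and anti-CD28 and sampled every 4 h up to 24 h. Th0 cultures received these antibodies alone, Th1 cultures also anti-IL-4 and IL-12, and Th2 cultures IL-4 together with antibodies to IL-12 and IFN-γ. Resting cells gave 2 libraries and each of the 18 cultures gave 1, so the spread comes from the 3 cultures of a time point and not from repeated experiments. The remaining 4 libraries followed a stimulation of 16 h, after which actinomycin, a blocker of transcription, was present for 0, 1, 2 or 4 h, and the condition under which they had been cultured is not given. The resting libraries and the cultures differ in a tag of their titles, and activation and preparation therefore cannot be told apart.

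Naive T cells are held out of the cell cycle by active mechanisms, and the products of these genes belong to several of them. BTG and TOB proteins are small antiproliferative adaptors, and they bring the CCR4-NOT deadenylase to mRNAs, whose poly(A) tails are then shortened. TXNIP binds thioredoxin and limits glucose uptake, PDCD4 binds the helicase eIF4A and restrains translation, and TSC22D3, also known as GILZ, is a leucine zipper protein induced by glucocorticoids and by FoxO factors.

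The values are RPKM, read numbers that the authors scaled to transcript length and to the mapped reads of the library. Between 17512385 and 33017133 mapped reads lay behind a library. Reads could be recovered as whole numbers (within 0.001 of a read) for Btg1, Btg2, Tob1 and Tob2, which had from 338 to 29908 reads in a library, and the 95% intervals given for these genes are exact and cover counting error only. For Txnip, Pdcd4 and Tsc22d3 no counting error is given, since their values were not whole multiples of 1 read. The 6 markers of CD4 T cells were present throughout, with a summed level of 1776 to 1793 RPKM at rest and 1065 to 1171 RPKM at 4 h. Markers of other spleen cells also moved with activation. The 10 macrophage markers, all above 0, summed to 605 to 621 RPKM at rest, 49.8 to 83.0 RPKM at 4 h and 10.1 to 14.4 RPKM at 24 h. The 7 B cell markers in the table summed to 68.5 to 78.6 RPKM at rest and 9.66 to 18.7 RPKM at 24 h, and the 4 NK cell markers to 105 to 107 RPKM and 15.8 to 49.7 RPKM. The 6 red cell markers in the table summed to 38691 to 42233 RPKM at rest, 29312 to 47024 RPKM at 4 h and 141 to 211 RPKM at 24 h. Platelet markers (4 genes) went from 30.9 to 33.7 RPKM at rest to 2.62 to 3.79 RPKM at 24 h, the neutrophil markers (5 of 6 above 0 at rest) summed to at most 9.32 RPKM in any library, and the 2 CD8 markers to at most 15.7 RPKM. The part of these cells in the members' changes was not tested, and in bulk RNA fewer cells of a type and less RNA per cell cannot be told apart. At 8 h the Th0 culture lay 2-fold or more from the mean of the other two in 734 of 10897 genes and the Th2 culture in 570, against 59 to 377 for the cultures of the other time points and 98 for Th1 at 8 h.

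In resting cells, Txnip was the most abundant of the 7 transcripts at 475 ± 20.7 RPKM (SD, n = 2) and ranked 161 among the 22009 named genes. Btg1 followed at 250.1 ± 2.46 RPKM, Tsc22d3 at 158 ± 4.54 RPKM, Btg2 at 138 ± 0.40 RPKM and Pdcd4 at 133 ± 5.30 RPKM (SD, n = 2 each). Tob2 at 42.8 ± 1.62 RPKM and Tob1 at 40.6 ± 0.65 RPKM (SD, n = 2) were the lowest. The neighbouring levels of Btg2 and Pdcd4 did not overlap between the resting libraries but were close, and Tob2 and Tob1 likewise. No member differed between the resting libraries by more than 0.09 on the log2 scale. By 24 h the order had changed: Btg1 was the highest at 92.9 ± 21.6 RPKM (SD, n = 3 cultures), then Pdcd4 at 52.9 ± 12.0 RPKM, Btg2 at 34.7 ± 8.18 RPKM, Tob2 at 28.8 ± 4.06 RPKM and Txnip at 24.8 ± 6.48 RPKM. Tob1 at 6.83 ± 0.92 RPKM and Tsc22d3 at 6.53 ± 2.33 RPKM (SD, n = 3) were lowest. Of the neighbours in this order, Pdcd4 and Btg2 overlapped, as did Btg2, Tob2 and Txnip and also Tob1 and Tsc22d3, whereas the lowest culture for Btg1 lay above the highest for Pdcd4, and the lowest for Txnip above the highest for Tob1.

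Btg1 (ENSMUSG00000036478.8) lies on chromosome 10 of GRCm38 from 96617006 to 96622809 on the plus strand and has 2 exons. Of the 50-base windows of Btg1, 2.49% are shared with the predicted gene Gm14519, so a small part of its reads could be shared. Its promoter is shown because it holds the core letters bound by FoxO factors, GTAAACA, which keep many quiescence genes on in naive T cells. The 250 bases before the RefSeq start, chr10:96616751-96617000 on the plus strand of GRCm38.p6, hold it as the reverse complement TGTTTAC (capitals), whose first base is 204 bases before the start:
Btg1 promoter: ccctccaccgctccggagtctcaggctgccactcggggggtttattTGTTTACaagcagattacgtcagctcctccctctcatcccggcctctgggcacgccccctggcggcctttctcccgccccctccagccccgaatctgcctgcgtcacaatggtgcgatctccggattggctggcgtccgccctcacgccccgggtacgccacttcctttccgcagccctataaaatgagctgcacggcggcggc

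In resting cells Btg1 had 252 and 248 RPKM. In Th0 it had 184, 171, 155, 131, 111 and 107 RPKM from 4 to 24 h. In Th1 the values were 267, 203, 173, 160.2, 116 and 104 RPKM. Th1 at 4 h thus lay above both resting libraries, and from 8 h on every culture lay below them. In Th2, Btg1 had 217, 145, 109, 97.1, 83.5 and 68.1 RPKM, which was the lowest of the 3 conditions from 8 h on. All 5 steps between time points went down in each condition, to 42.8% of the resting mean in Th0, 41.4% in Th1 and 27.2% in Th2. Against resting cells, tested here and below with limma, Btg1 changed by -0.18 on the log2 scale at 4 h (adjusted p = 0.618, SE 0.25), by -0.98 at 16 h (adjusted p = 0.00316), just under 2-fold, and by -1.45 at 24 h (adjusted p = 9.93e-05).

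Btg2 (ENSMUSG00000020423.6) is on chromosome 1 from 134075170 to 134079120, on the minus strand, with 2 exons; it is a known early response gene and p53 target. Both resting libraries had 138 RPKM. Th0 gave 159, 112, 95.4, 71.8, 51.8 and 44.1 RPKM from 4 to 24 h, and Th1 gave 140.2, 87.8, 72.3, 62.9, 43.4 and 29.4 RPKM. Th2 gave 172, 84.0, 66.5, 44.2, 38.7 and 30.6 RPKM. All 3 cultures at 4 h were above both resting libraries, although the 95% interval of Th1 (137 to 143 RPKM) included the resting values, and at every later time all 3 were below. The change of Btg2 was 0.18 at 4 h (adjusted p = 0.569, SE 0.22), -0.84 at 12 h (adjusted p = 0.00318), -1.23 at 16 h (adjusted p = 0.000148) and -2.00 at 24 h (adjusted p = 9.47e-07).

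Tob1 (ENSMUSG00000037573.5) is on chromosome 11 from 94211454 to 94215495, on the plus strand, with 2 exons; in T cells it is known as an inhibitor of activation. It had 40.1 and 41.1 RPKM at rest. From 4 to 24 h it had 36.0, 23.2, 15.2, 13.2, 9.55 and 7.89 RPKM in Th0. The series in Th1 was 31.0, 15.0, 10.5, 10.3, 7.63 and 6.26 RPKM. In Th2 the level was already 22.3 RPKM at 4 h, then 10.5, 8.93, 9.75, 7.49 and 6.34 RPKM. Tob1 was below both resting libraries in all 18 cultures, and at 24 h the 3 conditions lay between 15.4% and 19.4% of the resting mean. Tob1 changed by -0.47 at 4 h (adjusted p = 0.208, SE 0.27), by -1.37 at 8 h (adjusted p = 0.00063) and by -2.50 at 24 h (adjusted p = 1.07e-06).

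Tob2 (ENSMUSG00000048546.8), the closest relative of Tob1, is on chromosome 15 from 81848272 to 81858796, on the minus strand, with up to 3 exons. It overlaps the antisense gene Gm49476, and since the strand setting of the counting is not given, reads of the pair may not be separated. The resting libraries had 41.7 and 44.0 RPKM. Th0 had 31.4, 23.5, 34.5, 39.8, 33.7 and 30.1 RPKM, Th1 29.6, 29.6, 32.5, 33.7, 33.1 and 32.0 RPKM, and Th2 37.3, 40.0, 38.8, 35.3, 35.8 and 24.2 RPKM. Tob2 therefore lay below both resting libraries in all 18 cultures but by a small margin, with no steady course: of 5 steps, 3 went down in Th0, 2 in Th1 and 3 in Th2. Its log2 change lay between -0.58, at 24 h, and -0.24, at 16 h. It passed the p threshold, but not 2-fold, at 8 h (-0.49, adjusted p = 0.0276) and at 24 h (-0.58, SE 0.17, adjusted p = 0.00838).

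Txnip (ENSMUSG00000038393.14) is on chromosome 3 from 96557957 to 96561883, on the plus strand, with up to 8 exons, and it overlaps the antisense gene Gm15441, whose reads may not be separated from its own. The promoter window of Txnip, chr3:96557707-96557956 on the plus strand of GRCm38.p6, is shown because it also has the FoxO core, as GTAAACA (capitals), first base 121 bases before the RefSeq start:
Txnip promoter: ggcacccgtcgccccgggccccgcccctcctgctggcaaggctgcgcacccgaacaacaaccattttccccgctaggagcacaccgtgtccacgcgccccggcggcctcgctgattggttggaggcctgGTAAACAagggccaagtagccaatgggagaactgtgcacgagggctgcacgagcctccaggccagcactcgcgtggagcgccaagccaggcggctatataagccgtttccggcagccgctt

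GTAAACA on either strand was in 2 of the 10 windows of the members (Pdcd4 has 2 starts and Tsc22d3 has 3), and in 3.17% of all 32851 RefSeq windows of this length. The E-box core CACGTG, which is its own reverse complement, was in none of the 10 windows and in 6.02% of all windows. Only these exact letters were searched and not variants of them, and such a match is a description of the letters only.

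Txnip had 461 and 490.0 RPKM at rest. Already at 4 h Th0 had 175 RPKM, Th1 145 RPKM and Th2 100.2 RPKM. Th0 then had 155, 85.4, 66.7, 47.1 and 31.6 RPKM from 8 to 24 h. Th1 had 85.7, 50.9, 63.5, 40.2 and 24.1 RPKM, and Th2 51.4, 36.1, 31.0, 25.0 and 18.7 RPKM. Every culture was below both resting libraries, and at each time point the order was Th0, Th1, Th2 from high to low. Txnip changed by -1.80 at 4 h (adjusted p = 0.00513, SE 0.44) and by -4.26 at 24 h (adjusted p = 6.06e-07), a 19.2-fold fall. The change at 4 h no longer passed without the Th1 cultures (-1.84, adjusted p = 0.0543).

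Pdcd4 (ENSMUSG00000024975.13) is on chromosome 19 from 53892231 to 53929860, on the plus strand, with up to 13 exons. At rest it had 136 and 129 RPKM. In Th0 it had 94.1, 97.8, 66.0, 57.6, 48.2 and 56.6 RPKM from 4 to 24 h. In Th1 it had 71.0 RPKM at 4 h and then stayed between 39.5 and 45.0 RPKM. In Th2 the course turned: 68.9 RPKM at 4 h and 40.1 and 45.1 RPKM at 8 and 12 h were followed by 71.9, 72.6 and 62.7 RPKM at 16, 20 and 24 h, the highest of the 3 conditions at those times. None of the 18 cultures reached the level of either resting library. Pdcd4 changed by -0.78 at 4 h (adjusted p = 0.0951, SE 0.34), by -1.27 at 8 h (adjusted p = 0.00555) and by -1.34 at 24 h (adjusted p = 0.00261). At 8 h, where the cultures differed most, the adjusted p was 0.0553 with only the libraries compared in the fit, and without the Th0 cultures the change was -1.69 (adjusted p = 0.000605).

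Tsc22d3 (ENSMUSG00000031431.13) is on chromosome X from 140539528 to 140600659, on the minus strand, with up to 4 exons. The resting libraries had 154 and 161 RPKM. Levels in Th0 were 81.2, 70.3, 41.5, 26.8, 16.9 and 9.15 RPKM from 4 to 24 h. In Th1 they were 58.0, 26.4, 20.0, 19.5, 10.4 and 5.74 RPKM, and in Th2 54.9, 22.0, 15.9, 12.6, 7.49 and 4.69 RPKM. All 5 steps went down in each condition, and at 24 h between 2.98% and 5.81% of the resting mean was left. Tsc22d3 changed by -1.30 at 4 h (adjusted p = 0.0456, SE 0.47) and by -4.54 at 24 h (adjusted p = 6.57e-07), a 23.3-fold fall. The call for Tsc22d3 at 4 h was lost in 9 of 14 alternatives, with an adjusted p of up to 0.203, among them leaving out resting replicate 1 (0.158), resting replicate 2 (0.177), the Th1 cultures (0.203) or the Th2 cultures (0.054).

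**Figure D1:**
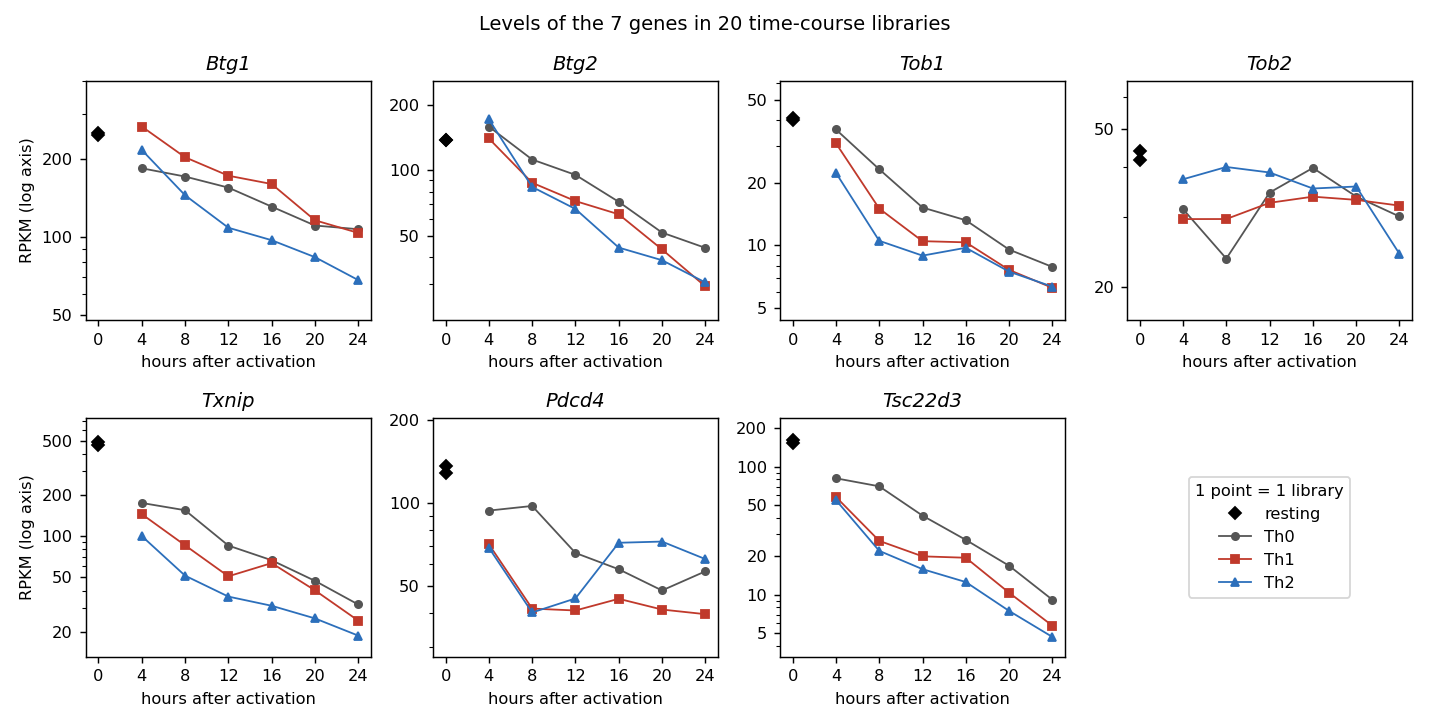
RPKM of each gene (log axis) against hours after activation, with 1 point per library, black diamonds for the 2 resting libraries and a line for each of Th0, Th1 and Th2. Txnip and Tsc22d3 decline at nearly every step, Btg2 starts from 140.2 to 172 RPKM at 4 h before it declines, Tob2 stays between 23.5 and 40.0 RPKM, and Pdcd4 in Th2 climbs from 40.1 RPKM at 8 h to 72.6 RPKM at 20 h.

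By 24 h of activation 6 of the 7 genes had fallen, and they passed the threshold at different times. A gene was counted as changed at an adjusted p under 0.05 and at least 2-fold, which understates low genes on the log2(RPKM + 0.5) scale. At 4 h, 2 of 7 had fallen, Txnip and Tsc22d3, against 7.97% of all 10897 genes tested. At 8 h, 4 of 7 had fallen with Tob1 and Pdcd4 added (12.5% of all genes), and at 12 h the number was again 4 (16.4% of all genes). Btg2 brought it to 5 at 16 h (14.5% of all genes) and Btg1 to 6 at 20 h (16.1% of all genes). At 24 h it was 6 of 7 against 17.4% of all genes, with Tob2 outside. No member rose at any time, where 2.61% of all genes rose at 4 h and 12.7% at 24 h. The 7 genes had a median change of -0.47 at 4 h and -2.00 at 24 h, beside -0.04 and -0.04 for all genes. The balance over all genes depends on the scaling: of the genes changed at 24 h, 42.4% were higher as deposited and 53.4% under quantile normalization, where the median of all genes was 0.13. Under quantile normalization the numbers that had fallen were the same at 4, 8, 20 and 24 h, while Btg2 passed at 12 h, making 5, and Btg1 at 16 h, making 6, each a time point earlier. At 8 h, where the Th0 and Th2 cultures stood apart, 4 members passed without either of them as well.

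**Figure D2:**
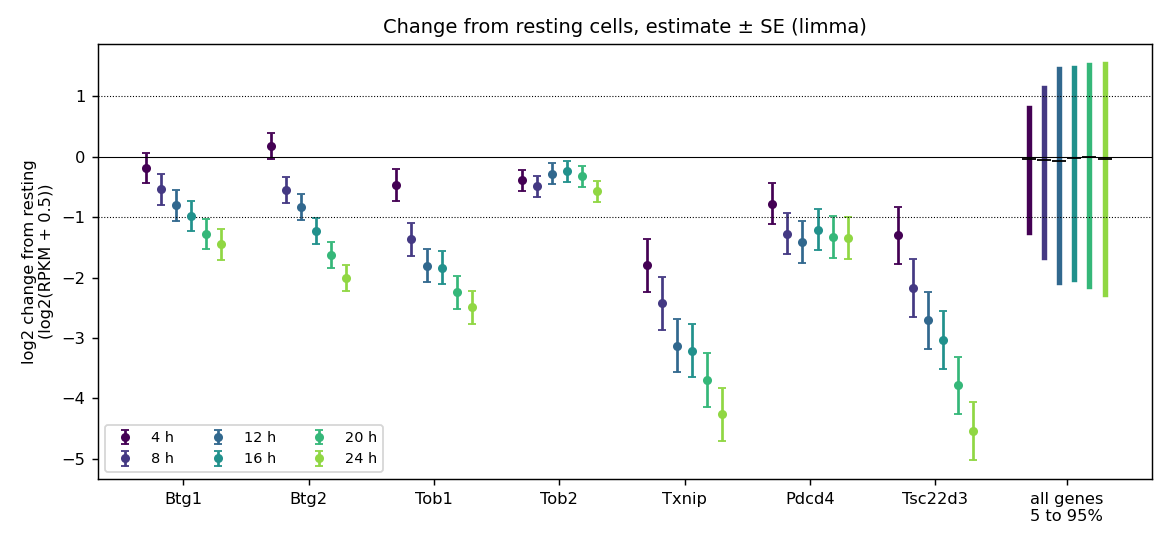
Log2 change from resting cells on the log2(RPKM + 0.5) scale (points, estimate; bars, standard error from limma) for each gene at 6 time points, beside the range from the 5th to the 95th percentile of all 10897 genes (thick bars, median as a dash); dotted lines mark 2-fold. Txnip and Tsc22d3 lie below the 5th percentile of all genes at every time, and Tob2 stays within 1 log2 unit of 0.

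Levels went on falling within the activated cultures, a comparison whose estimates do not use the resting libraries, although these enter the spread of the fit. Between 4 and 24 h, 5 of 7 genes fell at least 2-fold (13.2% of all genes): Tsc22d3 (-3.24 on the log2 scale, SE 0.42, adjusted p = 7.35e-06), Txnip (-2.47, SE 0.40), Btg2 (-2.18, SE 0.19, adjusted p = 1.41e-07), Tob1 (-2.03, SE 0.24) and Btg1 (-1.27, SE 0.22). Pdcd4 changed by -0.57 (SE 0.31, adjusted p = 0.112) and Tob2 by -0.19 (SE 0.16, adjusted p = 0.298). None of these calls was lost in any of the 12 alternatives. The macrophage markers went from 49.8 to 83.0 RPKM to 10.1 to 14.4 RPKM over the same interval.

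The skewing conditions addressed whether the cytokines of Th1 and Th2 differentiation altered these courses. They were compared over all 6 time points with the time point as a term of the fit, which sets 3 series of cultures of the same cells against each other. In Th2 against Th0, 2 of 7 genes were lower by at least 2-fold (1.83% of 10737 genes tested): Txnip at -1.06 on the log2 scale (SE 0.11, adjusted p = 4.23e-06) and Tsc22d3 at -1.11 (SE 0.12, adjusted p = 7.16e-06). Both were lower in Th2 at 6 of 6 time points, with ratios of 0.332 to 0.592 for Txnip and 0.314 to 0.676 for Tsc22d3. Without the 8 h cultures, where Th0 and Th2 stood apart, Txnip was at -0.95 and Tsc22d3 just past 2-fold (adjusted p = 1.24e-05 for both), so that only the latter was called; from 12 to 24 h alone the same was true, with Tsc22d3 at -1.11. Tob1 (-0.59, adjusted p = 0.000355), Btg2 (-0.41, adjusted p = 0.00455) and Btg1 (-0.33, adjusted p = 0.0131) passed the p threshold with differences under 2-fold. Tob1 was lower in Th2 than in Th0 beyond counting error at 6 of 6 time points, with ratios of 0.453 to 0.804. Btg1 and Btg2 were lower beyond counting error at 5 of 6, the exception being 4 h, when Btg1 was 1.18 times (95% interval 1.156 to 1.1998) its Th0 level.

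In Th1 against Th0 none of the 7 passed both thresholds (0.494% of all genes did), while in limma 6 of the 7, and 1757 of 10737 genes, had an unadjusted p under 0.05. Tsc22d3 differed by -0.78 (SE 0.12, adjusted p = 0.0015) and Tob1 by -0.38 (adjusted p = 0.0476), both under 2-fold. The ratio of Th1 to Th0 was below 1 at 6 of 6 time points for Tsc22d3, Tob1, Btg2, Txnip and Pdcd4, and for Tob1 and Btg2 each of the 6 was beyond counting error. Btg1 went the other way, with Th1 above Th0 beyond counting error at 5 of 6 time points and a ratio of 1.45 at 4 h (95% interval 1.43 to 1.48), but its difference of 0.21 did not pass (adjusted p = 0.275). In Th2 against Th1 again none of the 7 passed both thresholds (1.96% of all genes), while 5 of the 7, and 2718 of all genes, had an unadjusted p under 0.05 in limma. Txnip at -0.63 (adjusted p = 0.000713) and Btg1 at -0.54 (SE 0.09, adjusted p = 0.000693) passed the p threshold only, and Btg1 was lower in Th2 beyond counting error at 6 of 6 time points, with ratios of 0.606 to 0.812. Pdcd4 was higher in Th2 than in Th1 at 4 of 6 time points, by up to 1.77 times at 20 h, with a difference over the course of 0.37 (SE 0.17, adjusted p = 0.194). The 3 comparisons share their cultures and are not independent.

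**Figure D3:**
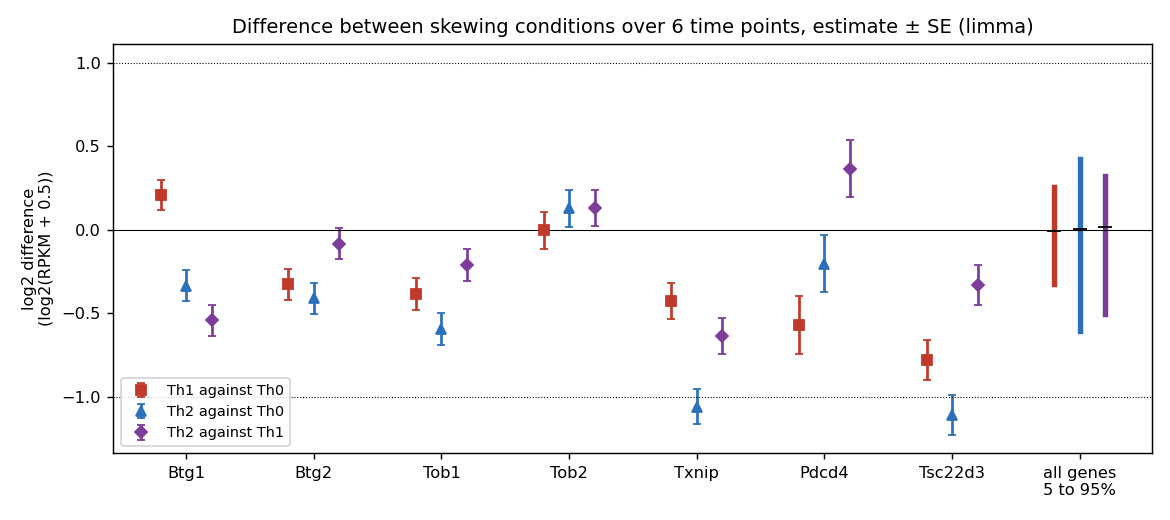
Log2 difference between conditions over the 6 time points on the log2(RPKM + 0.5) scale (points, estimate; bars, standard error from limma), beside the 5th to 95th percentile of all 10737 genes; dotted lines mark 2-fold. Only Txnip at -1.06 and Tsc22d3 at -1.11, in Th2 against Th0, lie past 2-fold, and without the 8 h cultures Txnip does not. Above 0 lie Pdcd4 in Th2 against Th1, Btg1 in Th1 against Th0, and Tob2 in Th2 against Th0 (0.13) and in Th2 against Th1 (0.13).

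Whether the courses diverged with time was tested as a difference of slopes per hour. In the main fit none of the 7 passed in any of the 3 comparisons. Of all genes, 0.0279%, 5.15% and 1.09% did for Th1 against Th0, Th2 against Th0 and Th2 against Th1. In the same order, an unadjusted p under 0.05 in limma was found for 1, 4 and 3 of the 7. It was found for 991, 2466 and 1957 of all 10737 genes. The steepest was Pdcd4 in Th2 against Th0, with a difference of 0.067 log2 units per hour (SE 0.019, adjusted p = 0.0517) that ranked at the 99.5th percentile of all genes. Its adjusted p over the alternatives was between 0.00483, without the 4 h cultures, and 0.207. Over those alternatives the slope of Pdcd4 was between 0.047, without the 8 h cultures, and 0.099. Pdcd4 in Th2 was 0.41 times its Th0 level at 8 h and 1.51 times at 20 h, which the mean difference of -0.20 (adjusted p = 0.39) does not show. Btg1 had a slope difference of -0.035 per hour (adjusted p = 0.0563) in the same comparison. How many members and how many of all genes passed in it changed when a time point was left out, as given in the last section.

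Actinomycin served to follow the transcripts once synthesis was blocked. Since RPKM is a share of all mapped reads, a slope here is relative to the other transcripts, whose median slope was 0.0022 log2 units per hour. Btg1 had 118, 87.4, 46.3 and 29.4 RPKM at 0, 1, 2 and 4 h, so that 25.0% of the start was left. Btg2 had 22.5, 17.1, 12.9 and 9.65 RPKM, with 42.9% left. Both went down at each step, as did Txnip, which had 70.4, 65.2, 62.3 and 35.2 RPKM and kept 50.03%. Tob2 had 17.0, 15.6, 8.79 and 9.60 RPKM and Pdcd4 51.8, 47.0, 35.9 and 41.8 RPKM, both lowest at 2 h. Tob1 had 7.69, 7.03, 10.5 and 10.1 RPKM and Tsc22d3 16.4, 17.6, 26.8 and 26.0 RPKM, which were 132% and 158% of the start at 4 h.

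In limma, 4 of the 7 genes had a falling slope that passed an adjusted p under 0.05 (12.0% of 10571 genes): Btg1 at -0.51 log2 units per hour (SE 0.06, adjusted p = 1.23e-13), Btg2 at -0.29 (SE 0.06, adjusted p = 0.000246), Txnip at -0.25 (adjusted p = 0.000291) and Tob2 at -0.22 (adjusted p = 0.0116). Btg1 was at the 0.20th percentile of all slopes. Tsc22d3 rose relative to all reads at 0.18 (SE 0.06, adjusted p = 0.0261, against 8.95% of all genes that rose), and Tob1 at 0.12 (adjusted p = 0.24) and Pdcd4 at -0.08 (adjusted p = 0.32) did not pass. With 1 library a time point, these p-values rest almost wholly on a spread borrowed from all genes. The exact permutation test over the 4 times gave a two-sided p of 0.0417, the smallest it allows, for Btg1, Btg2 and Txnip, and 0.167 for Tsc22d3, 0.25 for Tob2, 0.292 for Tob1 and 0.333 for Pdcd4. That test used the same 4 libraries as the slopes and was run for the 7 genes only, so no share of all genes is given. The call for Btg1 held in all 12 alternatives. That for Txnip was lost without the 4 h library (-0.09 per hour, adjusted p = 0.73), that for Btg2 without the 0 h library or the 4 h library (adjusted p up to 0.114), that for Tob2 in 4 of 12 alternatives (adjusted p up to 0.319), among them leaving out the 0 h or the 1 h library, and that for Tsc22d3 in 7 of 12 (adjusted p up to 0.401), among them leaving out the 0 h, 1 h or 4 h library.

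**Figure D4:**
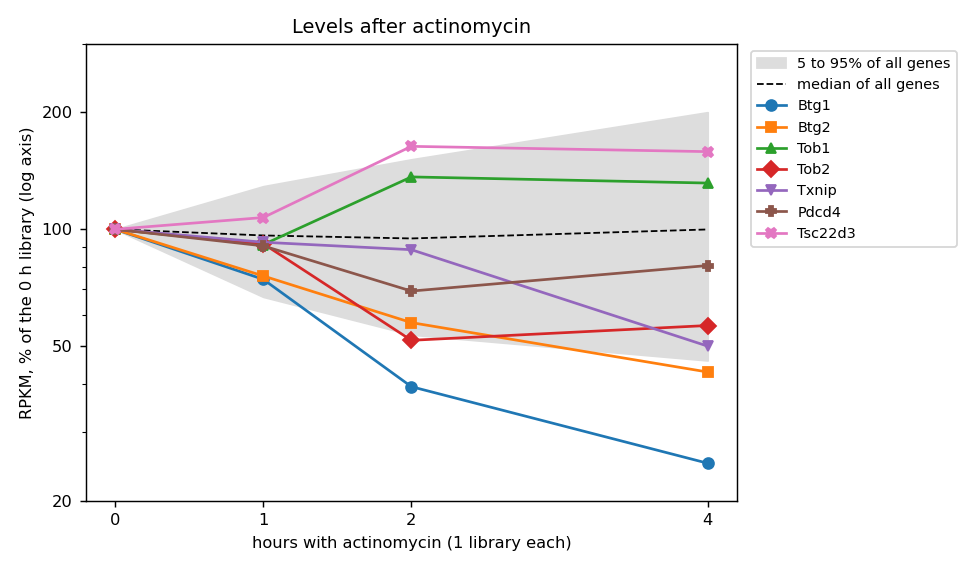
RPKM after 0, 1, 2 and 4 h with actinomycin as a percent of the 0 h library (log axis), 1 library per point, with the 5th to 95th percentile of all genes shaded and their median dashed. At 4 h, Btg1 at 25.0% and Btg2 at 42.9% lie below the shaded range, which starts at 46.0%, while Tob1 and Tsc22d3 lie above 100%.

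The library at the start of the actinomycin series was set beside the 3 cultures of the time course at 16 h, without a test. Btg2 was at 22.5 RPKM there, against 44.2 to 71.8 RPKM in the cultures, Tob2 at 17.0 RPKM against 33.7 to 39.8 RPKM, and Tob1 at 7.69 RPKM against 9.75 to 13.2 RPKM, all below the cultures. Txnip at 70.4 RPKM was above all of them, and Btg1, Pdcd4 and Tsc22d3 lay within their range. The macrophage markers summed to 57.6 to 80.6 RPKM over all the actinomycin libraries, not the start library alone, and 13.9 to 31.5 RPKM in the cultures at 16 h. Most of the sum in the actinomycin libraries came from Lyz2 (21.5 to 60.0 RPKM) and Cd68 (3.82 to 30.5 RPKM). Each of the other markers of this list had at most 3.77 RPKM there, so the sum does not speak for the list as a whole.

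Across the 20 libraries of the time course, which share the resting libraries and the pool of cells, the members other than Tob2 had similar profiles. As a description, the Pearson correlation of their log2 levels was between 0.42 (Btg1 and Pdcd4) and 0.98 (Txnip and Tsc22d3) over 15 pairs, and between 0.13 and 0.31 for the 6 pairs with Tob2. Among 8477 genes that averaged 5 RPKM or more, the profile most like that of Btg1 was Gimap6 (r = 0.97), a GTPase of lymphocytes, followed by Wnk1 and Sh3glb1. Gimap6 had 493 RPKM at rest, 483 RPKM at 4 h and 135 RPKM at 24 h. For Btg2 they were Itpkb (r = 0.98), an inositol phosphate kinase, Cxcr4, a chemokine receptor, and Ypel5. Cxcr4 had 98.2 RPKM at rest, 84.8 RPKM at 4 h and 6.59 RPKM at 24 h. For Tob1 they were Lats2 (r = 0.99), a kinase of the Hippo pathway, Bsdc1 and Map1lc3b. Txnip was most like Myo1f (r = 0.99), a myosin of leukocytes, Frat2 and Acp5, and Tsc22d3 most like Pnrc1 (r = 0.98), Add3 and Phf1. Pnrc1 had 239.7 RPKM at rest, 141 RPKM at 4 h and 39.5 RPKM at 24 h. The best match was weaker for Pdcd4, Auh (r = 0.92) before Ccdc117 and Cat, and for Tob2, Rnf40 (r = 0.88).

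The other genes of the pathways around the members were taken from lists. Of the BTG family outside the 7, Btg4 was listed at 0, and Btg3 rose at 12 h by 1.10 on the log2 scale (SE 0.26, adjusted p = 0.00146) and passed at no other time point. The call was lost without the first resting library, and without the second Btg3 was called at 8 and 16 h as well. In the difference of slopes of Th2 against Th0, Btg3 passed at -0.077 log2 units per hour (adjusted p = 0.00679). Btg3 had 15.4 to 20.2 RPKM at rest and a mean of 27.4 RPKM at 24 h. The CCR4-NOT and poly(A) partners of BTG and TOB proteins, 16 genes, had a median change of 0.20 at 24 h beside -0.04 for all genes. Of them Cnot9, a subunit of the complex, rose by 1.18 (12.7% of all genes rose). Pan3, of the other deadenylase complex, had a change of -1.13, a fall (17.4% of all genes fell). With median-of-ratios scaling Pan3 was just under 2-fold and the 2 calls became 1, and with quantile normalization they became 4. The remaining 14 did not pass at 24 h, and none of the 16 did at 4 h, where limma gave no call in any of the 14 alternatives.

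Among the naive-state and quiescence genes, 15 of 25 fell and 2 rose by 24 h (17.4% and 12.7% of all genes), with a median change of -1.55. The falls were led by S1pr1 (-3.43), the receptor by which T cells leave lymphoid tissue, and Klf2 (-3.39), the factor that drives it. The genes that rose were Slfn2 (1.51) and Ccr7 (1.36). At 4 h, Slfn2 (1.41) and Bach2 (1.11), both known to maintain quiescence, rose (2.61% of all genes). None of the 25 fell (7.97% of all genes), so that the falls of Txnip and Tsc22d3 at 4 h had no counterpart past the threshold in this list. Without the Th0 cultures Bach2 was under 2-fold at 4 h. In Th2 against Th0, 6 of the 25 were lower (1.83% of all genes). In Th2 against Th1 4 were lower (149 of 10737 genes), among them Il7r (-1.45), Pik3ip1 (-1.12) and S1pr1 (-1.004). None of the 25 passed in Th1 against Th0 (0.494% of all genes). After actinomycin 10 of them fell (12.0% of all genes), led by Klf2 at -0.48 per hour, and 5 rose (8.95% of all genes): Pik3ip1 (0.31), Il7r (0.29), Foxo4 (0.28), Tsc1 (0.27) and Tsc2 (0.19). The 15 calls became 6 with no filter, without the 0 h library or without the 4 h library.

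Around Tsc22d3, 4 of 11 glucocorticoid-responsive and TSC22 genes fell at 4 h (7.97% of all genes) and none rose, with a median of -0.56. They were Dusp1 (-2.92), a phosphatase of MAP kinases, Sgk1 (-2.18), Ddit4 (-1.95), an inhibitor of mTORC1, and Zfp36l2 (-1.35). By 24 h 6 of 11 had fallen (17.4% of all genes), Dusp1 furthest at -4.77, and the median was -1.33. The receptor itself, Nr3c1, had a change of -1.33, and Tsc22d1, a paralog of Tsc22d3, one of -2.00. No gene of this list was called in a comparison of conditions over the course, and of the differences of slopes only that of Per1, a clock gene, passed, at -0.062 log2 units per hour in Th2 against Th0 (adjusted p = 0.0478). After actinomycin 1 of the 11, Sgk1 at 0.24 per hour, rose relative to all reads (8.95% of all genes). The 4 that fell (12.0% of all genes) were Dusp1 (-0.48), Klf9 (-0.40), Ddit4 (-0.28) and Zfp36l2 (-0.20). These 5 calls became 1 with no filter, 0 without the 0 h library and 3 without the 4 h library.

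Around Txnip, 12 of the 14 thioredoxin, arrestin-domain and glucose genes were tested against resting cells. At 4 h 1 of the 12, Txnrd1, the thioredoxin reductase, rose by 1.10 (2.61% of all genes rose) and none fell. By 24 h 4 had risen and 3 had fallen (12.7% and 17.4% of all genes). Those that rose were Hk2 (3.62), a hexokinase, Txn1 (2.04), the thioredoxin that TXNIP binds, Txnrd1 (1.60) and Txn2 (1.38). Those that fell were Arrdc3 (-2.45) and Arrdc2 (-1.28), relatives of Txnip among the α-arrestins, and Slc2a3 (-1.32), a glucose transporter. After actinomycin, where 13 of the 14 were tested, Mlxip at 0.24 and Arrdc1 at 0.16 per hour rose (8.95% of all genes). The 4 that fell (12.0% of all genes) were Arrdc3 (-0.41), Hk2 (-0.39), Mlx (-0.21) and Slc2a1 (-0.18). These 6 calls became 2 with no filter or without the 4 h library and 3 without the 0 h or the 1 h library. Around Pdcd4, 3 of 11 translation factors and kinases rose by 24 h (12.7% of all genes) and none fell: Eif4e (1.81), the cap-binding protein, Eif4a1 (1.396), the helicase that PDCD4 binds, and Eif4h (1.24). The 11 genes had a median change of 0.79, and none passed at 4 h. After actinomycin 3 of the 11 fell (12.0% of all genes): Eif4e (-0.37), Eif4a3 (-0.24) and Fbxw11 (-0.17). These became 1 call with no filter or without the 0 h or the 4 h library.

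For orientation, T cell activation genes rose early while proliferation genes did not. At 4 h 9 of 12 activation genes had risen (2.61% of all genes), led by Irf4 (3.70). At 24 h it was 7 of 12 (12.7% of all genes), led by Il2 (6.19), with no falls. Of 20 proliferation genes, 8 were lower at 4 h (7.97% of all genes), led by Ccne2 (-1.49). At 24 h 6 were higher (12.7% of all genes), led by Myc (2.58), and 6 were lower (17.4% of all genes), led by Ccnb2 (-3.54). Between 4 and 24 h, the interval over which 5 members fell, 9 of the 20 rose (1418 of all 10897 genes did), led by Mcm3 (2.65). Ccnb2 (-2.63) and Mki67 (-1.67) fell (13.2% of all genes). In resting cells the 20 genes had from 6.62 RPKM (E2f1) to 318 RPKM (Pcna), and Mki67 had 91.8 to 94.0 RPKM. The red cell markers Slc4a1 and Alas2 had at least 277 RPKM at rest and at most 1.74 RPKM at 24 h. The part of other cells in the changes of the proliferation genes was not tested.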

How the data were processed

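RNA sequencing of 24 libraries of CD4+ T cells from mouse spleen was read from the RPKM values that the authors deposited per gene symbol. The submitters' processing notes name BWA and GRCm38; the counter and annotation are not given in the sources used here. The 1 entry without a name, at 0 throughout, was left out. Mapped reads per library were recovered from genes with a single GENCODE M21 transcript length. RPKM plus 0.5 was taken to the log2 scale and fitted by limma (version 3.58.1, R 4.3.3), the variance prior following the mean level, for genes averaging 1 RPKM or more, and p-values were adjusted by Benjamini-Hochberg over all of them: 20 libraries for time, 18 cultures for conditions (time point as a factor) and for differences of slopes between conditions (linear in hours), 4 libraries for actinomycin (linear in hours). Every adjusted p in the text is from these fits or, where an alternative is named, from the same fit under it; the fits were tested on simulated data. The paper states an adjusted p and a fold threshold of 2 for its arrays, and these were used here; slopes needed the adjusted p only. No label says that the resting libraries came from separate animals. The paper states that the spleen cells came from a pool of several mice, and that each time and condition gave 1 dataset. The p-values measure only the spread between these samples, which may be technical, with no biological replicates of a culture behind them. The members and lists were chosen with earlier results of these data known. Genes named beside the members are the 3 most correlated with each, and for each list the furthest called in each direction, plus all genes of counts of 5 or fewer; Tsc22d1 and Nr3c1 were added after their values were seen, as were further genes named within longer counts. Some genes that the rule would name are not reported here. Promoters are from RefSeq (GRCm38.p6), and all 7 members matched; motifs were searched on both strands. Python 3.11.15 (numpy 2.4.6, pandas 2.3.3, scipy 1.17.1) was used. Alternatives were pseudocounts of 0.1 and 1, no filter or at least 5 RPKM, 3 other scalings, no intensity trend, only the libraries compared, only 12 to 24 h, and leaving out libraries. Proteins were not compared.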

Additional observations from a re-analysis of the deposited data

How the results depend on the processing

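Differences of slopes between conditions with an unadjusted p of 0.05 or more in limma were left out of this count. Of 1183 alternatives to the remaining 85 results for the 7 genes, 1136 kept the direction and the side of the threshold. Another 27 lost the call, 8 gained it and 12 changed sign. Those that changed sign were all small differences that had not passed: Tob2 between 24 and 4 h was between -0.34 and 0.025 (without the Th2 cultures) when a condition was left out, Tob2 in Th1 against Th0 (-0.003) was 0.017 with median-of-ratios, 0.010 with upper-quartile and 0.00052 with quantile scaling and between -0.068 and 0.044 when a time point was left out, and Tob2 in Th2 against Th0 was -0.057 from 12 to 24 h alone. Pdcd4 in Th2 against Th0 was between -0.36 and 0.012 (without the 8 h cultures) when a time point was left out and 0.13 from 12 to 24 h alone, and Btg2 in Th2 against Th1 was between -0.16 and 0.00082 (without the 16 h cultures). The 2 members called at 4 h became 1 with a pseudocount of 0.1, no filter, at least 5 RPKM, median-of-ratios or upper-quartile scaling, and from 0 to 2 when libraries were left out. In Th2 against Th0 the 2 members became 1 from 12 to 24 h alone, and from 1 to 2 when a time point was left out. For the slope of Th2 against Th0, counted over all 7 members, 1 passed with at least 5 RPKM, where 104 of 8358 genes were higher and 476 lower. It was 0 to 5 members when a time point was left out, 5 of them without the 4 h cultures. The number over all genes also moved widely when a time point was left out, as given below, so these counts are not read as a result about the members. The 5 members called after actinomycin became 3 with no filter or no intensity trend, and 2 to 5 when a library was left out.

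Over all genes, the 1152 called at 4 h became 646 and the 2059 at 8 h became 1334 with at least 5 RPKM. For the slope of Th1 against Th0 the 3 genes became 6 with a pseudocount of 0.1, 1 with median-of-ratios scaling or no intensity trend, 8 with quantile scaling and 0 to 45 when a time point was left out. For Th2 against Th0 the 553 became 258 with no filter and 84 to 3035, and for Th2 against Th1 the 117 became 68 and 22 to 513. After actinomycin the 2213 became 698 with no filter and 536 to 3351. Precision is limited by 1 library per culture and time, 2 resting libraries with another tag in their titles and, after actinomycin, 4 libraries of unstated condition. The causes of these differences were not tested. No paired analysis was possible because the cultures carry no replicate numbers, and the conditions were matched by time point only.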
